A study of Homo sapiens with 6 samples.

Results

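Epithelial junction and polarity genes were followed in MDA-MB231 cells after depletion of LSD1, a demethylase of histone lysines whose gene is KDM1A. The set held 38 genes chosen by symbol from what is known of tight junctions, desmosomes, catenins, cell polarity and the epithelial program, without keratins. This set and the other lists used below were chosen with earlier results of these data known. Counts of changed genes in them may depend on that choice. All 38 had a row among the 23368 gene symbols of the count table. MDA-MB231 is an established human line of triple-negative breast cancer with a mesenchymal appearance. The groups were cells given a control siRNA (siControl), siL1 or siL2, the latter being separate siRNAs that target LSD1, with 2 libraries in each group. All cells were of this line, grew in DMEM with 10% FCS and received their siRNA by interferin, a transfection reagent, and bulk total RNA was sequenced. An siRNA lowers a transcript without removing the gene, and the labels give no time after transfection. The labels do not state that the replicates were separate cultures, so the p-values cover the spread of these libraries alone, which may be technical.

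Epithelial cells hold together through stacked junctions. Tight junctions seal the space between cells with claudins and occludin, which cytoplasmic scaffolds such as ZO-1 (TJP1) tie to actin. Adherens junctions join cadherins to actin through the catenins, and desmosomes join the desmosomal cadherins to keratin filaments through plakoglobin (JUP), plakophilins and desmoplakin (DSP). Transcription factors of the GRHL and OVOL families and the splicing regulators ESRP1 and ESRP2 keep this program on, while SNAI and ZEB factors are known repressors of it that bind the hexamer CACCTG. Breast cancer lines of the claudin-low type, to which MDA-MB231 is usually assigned, are known for weak expression of several of these genes.

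Total counts ran from 22047738 to 26765079 per library, and a count of 3, the most that a count of 0 allows, was worth 0.112 to 0.136 CPM, the unit of raw counts scaled to each library's total. Changes are log2 fold changes from edgeR's quasi-likelihood test, adjusted by Benjamini-Hochberg over all 13322 tested genes, with calls at 0.05. KDM1A itself stood at 158 and 165 CPM in control libraries, 27.7 and 28.1 after siL1 and 17.4 and 18.1 after siL2. It fell by 2.53 on the log2 scale after siL1 and fell by 3.19 after siL2. The defining epithelial cadherin gene CDH1 had 0 to 3 counts in every library, and the mesenchymal cadherin gene CDH2 had 1 to 5, whereas the mesenchymal filament gene VIM had 3291 to 3707 CPM. Of the luminal markers, the hormone receptor genes ESR1 and PGR had at most 2 counts, while the keratin genes KRT8 and KRT18 were at 203 to 261 CPM and 188 to 268 CPM. The 10 luminal markers, 6 of them tested, moved both ways. After siL1, 2 rose (GATA3 by 0.96, KRT8 by 0.13) and FOXA1 fell by 0.72. After siL2, GATA3 rose by 0.46 and 3 fell (FOXA1 by 1.22, KRT18 by 0.49, KRT8 by 0.19). Of all genes tested, 24.7% were higher and 25.7% lower after siL1, and 22.6% and 23.3% after siL2. Of 10 fibroblast and endothelial markers, 7 were tested, of which 4 rose after siL1 and 3 after siL2, where 24.7% and 22.6% of all genes tested were higher. The summed level of the list was 10.6 to 11.7 CPM in the control, 26.2 to 27.7 after siL1 and 16.7 to 18.6 after siL2. Among these, DCN and LUM had 0 counts in all libraries. Of the blood markers, HBB had 0 counts throughout, PTPRC had at most 1 and CD14 had 4 to 10, whereas CD68, a lysosomal glycoprotein gene, was at 206 to 272 CPM and rose after siL2 (log2 0.31, edgeR adjusted p = 8.31e-05). The part of such markers in the results below was not tested. In bulk RNA, fewer cells with a transcript and less of it per cell cannot be told apart.

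Sequences upstream of 4 members are shown here because CLDN7 and JUP rose most on the log2 scale after siL2, CGN rose with both siRNAs without holding the hexamer, and RAB25 was close to silent. They come from RefSeq windows on GRCh38.p14 that run 250 bases up to the start site, printed 5′ to 3′ on the gene's strand, with CACCTG or its reverse complement CAGGTG in capitals. A window was available for 22 of the 38 members. The JUP stretch lies at chr17:41785977-41786226 on the minus strand before the downstream of its start sites, the CGN stretch at chr1:151511137-151511386 on the plus strand, and the RAB25 stretch at chr1:156060910-156061159 on the plus strand. None of these held an exon of its own gene in GENCODE v29. For CLDN7, at chr17:7262479-7262508 on the minus strand, only the last 30 bases before the downstream start site are given.
JUP: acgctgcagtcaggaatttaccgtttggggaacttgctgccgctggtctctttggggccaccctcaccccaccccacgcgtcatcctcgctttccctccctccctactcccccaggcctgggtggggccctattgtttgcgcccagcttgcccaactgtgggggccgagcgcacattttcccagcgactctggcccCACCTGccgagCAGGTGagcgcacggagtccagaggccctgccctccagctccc
CGN: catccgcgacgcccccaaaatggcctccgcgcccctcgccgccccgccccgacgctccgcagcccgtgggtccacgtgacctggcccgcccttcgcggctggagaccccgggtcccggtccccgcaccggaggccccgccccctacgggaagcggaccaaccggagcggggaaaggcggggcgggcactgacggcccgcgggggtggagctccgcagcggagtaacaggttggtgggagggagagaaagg
RAB25: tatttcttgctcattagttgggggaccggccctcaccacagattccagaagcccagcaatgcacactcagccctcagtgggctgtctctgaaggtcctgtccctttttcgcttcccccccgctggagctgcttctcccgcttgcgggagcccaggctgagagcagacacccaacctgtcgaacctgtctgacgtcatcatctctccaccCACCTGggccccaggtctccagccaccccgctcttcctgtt
CLDN7: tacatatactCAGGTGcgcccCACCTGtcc

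The hexamer, searched on both strands, was present in the 300-base windows of 12 of the 22 members, or 13 of 35 windows where a gene has several start sites (37.1%). Over all 35116 windows of the table the share was 20.6%. The windows also differed in composition, with a median of 25 CG dinucleotides in member windows and 14 over all windows. The part of composition in the share was not tested. The members with a match were CLDN3, CLDN7, OCLN, TJP1, TJP3, DSC2, DSG2, DSP, JUP, SPINT1, RAB25 and ELF3. They included genes that rose, DSP, which fell, and RAB25, ELF3, TJP3 and SPINT1, which were near-silent. CGN, CLDN4 and PERP rose without a match in their windows. CLDN7 and JUP each held a pair of matches in opposite orientation with 5 bases between them. A pair at this spacing, in any orientation, was present in 15 of the 35116 windows (0.0427%), those of CLDN7 and JUP included. The spacing was looked for after these sequences had been seen, so the share is no evidence about these genes. A match is a description of the letters, and binding was not measured.

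Of the 38 members, 12 were near-silent, defined as below 1 CPM in every library of all 3 groups. The share of all gene symbols below this limit was not computed. The low-count filter of the test, a related limit, left out 11 of the 38 members and 10046 of the 23368 gene symbols. The count of near-silent members is thus not read as particular to the set. CLDN1 and CLDN3 were also below 1 CPM in both control libraries but not in every siL1 library, and are described with the tight junction genes. PKP1, a desmosomal plakophilin, and GRHL2, a pioneer factor of epithelial genes, had 0 counts in all 6 libraries, which allows at most 0.136 CPM. RAB25, a small GTPase of apical recycling, had 1 count in a siL1 library and 0 elsewhere, and OVOL1, an epithelial repressor of ZEB1, had 2 counts in a siL2 library and 0 elsewhere. These 4 stayed at or under 3 counts in every library. The remaining 8 were OVOL2 with 0 to 5 counts, TJP3 with 1 to 5, MARVELD2 (tricellulin) with 1 to 4, ELF3 with 2 to 4 and SPINT1 with 1 to 6. ESRP1 had 5 to 10 counts, CDH3 (P-cadherin) had 1 to 15 and ST14 (the protease matriptase) had 4 to 19. For CDH3 the highest value, 15 counts, was in siL1 replicate 2 beside 2 counts in siL1 replicate 1, and ST14 likewise had 19 beside 6. CDH3 was too low to be tested, but entered the test and passed as higher when siL1 replicate 1 was left out. The near-silent members took 5 of the 7 transcription and splicing factors of the set, 2 of 10 tight junction genes and 1 of 8 desmosome genes.

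**Figure D1:**
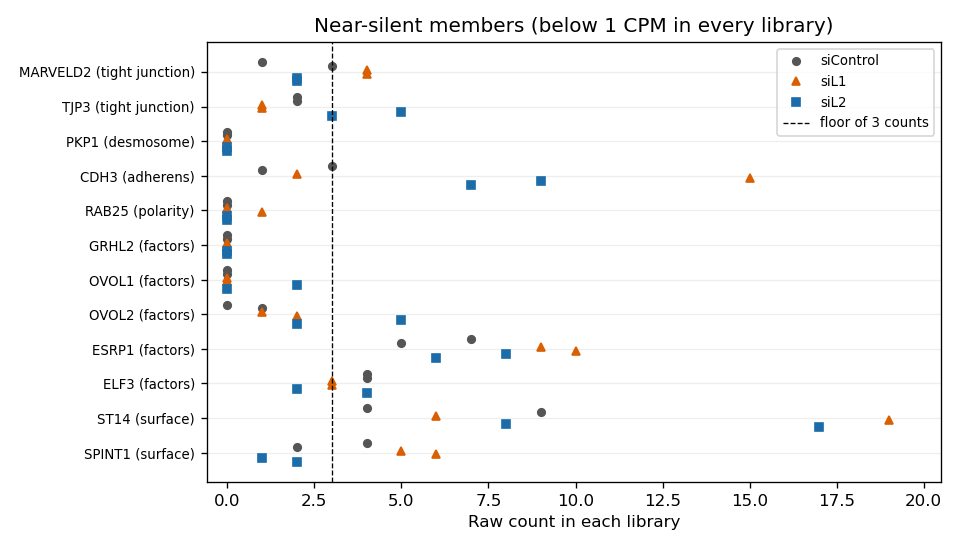
Raw counts (x axis) of the 12 near-silent members (y axis, role in parentheses), with a point for each of the 6 libraries and the dashed line at 3 counts. PKP1 and GRHL2 sit at 0 in all libraries, and only ST14 and CDH3 reach 15 counts or more, each in siL1 replicate 2 and ST14 also in siL2 replicate 2.

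The other 26 members reached 1 CPM in at least 1 library. Levels between genes were compared per exon length, as CPM per kilobase of merged GENCODE v29 exons in the control libraries, which depends on exons that the line may not use. The adherens junction genes CTNNA1 (alpha-catenin, which links cadherin complexes to actin), at 140, and CTNNB1 (beta-catenin), at 68.3, were the highest members on this scale. SPINT2, a membrane inhibitor of serine proteases, was at 56.8, the plakophilin PKP4 at 53.0, the tetraspan desmosomal protein PERP at 29.2 and the desmosomal cadherin DSG2 at 28.2. The claudin CLDN7 was at 6.75, the adhesion molecule EPCAM at 5.71, cingulin (CGN) at 2.55, CLDN4 at 2.08, JUP at 1.99 and OCLN at 1.26. The median of all gene symbols above 0 was 5.29, and 14 of the 34 members above 0 were above it. Ranked over all 20128 gene symbols with a gene model, those at 0 included, PARD6B lay at percentile 51.0. The next member below it, CLDN3, lay at 48.7. CTNND1 (p120-catenin) was at 0.611, but this count is uncertain. The read-through gene TMX2-CTNND1 covers 57379 of its 57739 bases in RefSeq and had 0 counts in all libraries, and how reads in shared stretches were counted was not given. CLDN1 was likewise covered over its whole span by CLDN16 in RefSeq on GRCh38.p14, and CLDN16 had 0 counts in all libraries.

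**Figure D2:**
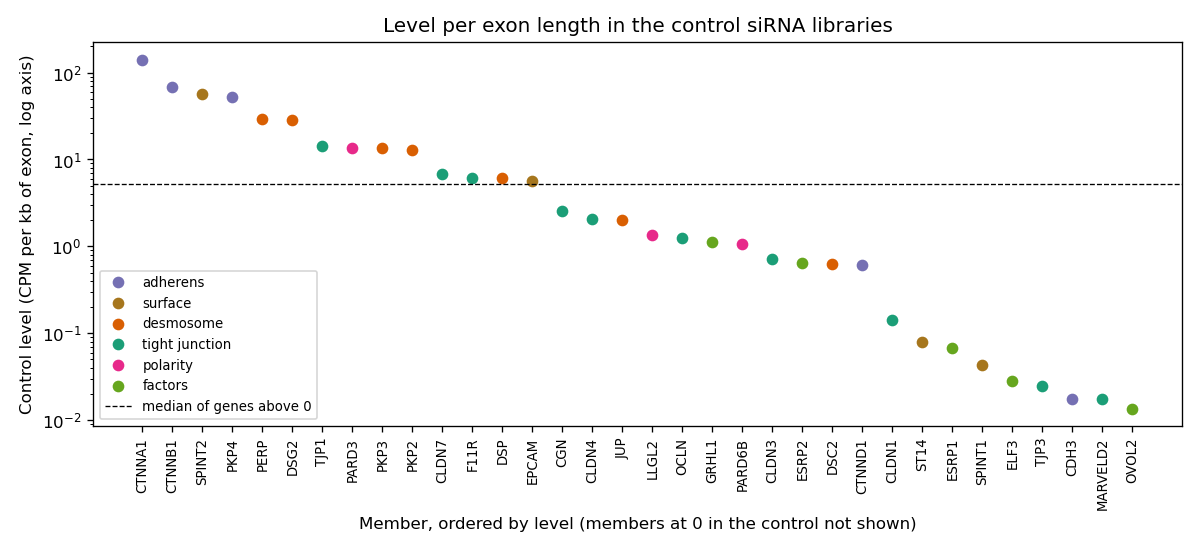
Control level of the 34 members above 0 (x axis, ordered by level) in CPM per kilobase of exon on a log axis, as the mean of 2 control libraries and coloured by role; the dashed line is the median of 5.29 over gene symbols above 0. CTNNA1, CTNNB1, SPINT2 and PKP4 lie at the top, and the regulators ESRP1, ELF3 and OVOL2 lie at the lower end.

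The low-count filter left 27 members to be tested. With siL1, 16 of the 27 passed the threshold, 11 higher and 5 lower, or 59.3%, where 50.4% of all genes tested passed. Of all genes tested, 24.7% were higher and 25.7% lower, against 40.7% and 18.5% of the members. With siL2, 12 of the 27 passed, 9 higher and 3 lower, or 44.4%, where 45.8% of all genes passed, 22.6% higher and 23.3% lower. The median log2 fold change of the members was 0.17 after siL1 and 0.04 after siL2, beside -0.01 and -0.0036 over all genes tested. Both comparisons use the same 2 control libraries, so their values are given side by side and are not independent. In the authors' deposited table, 14 members were below an adjusted p of 0.05 after siL1 (10 higher, 4 lower) and 11 after siL2 (9 higher, 2 lower). The share of all genes below 0.05 there was not computed.

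**Figure D3:**
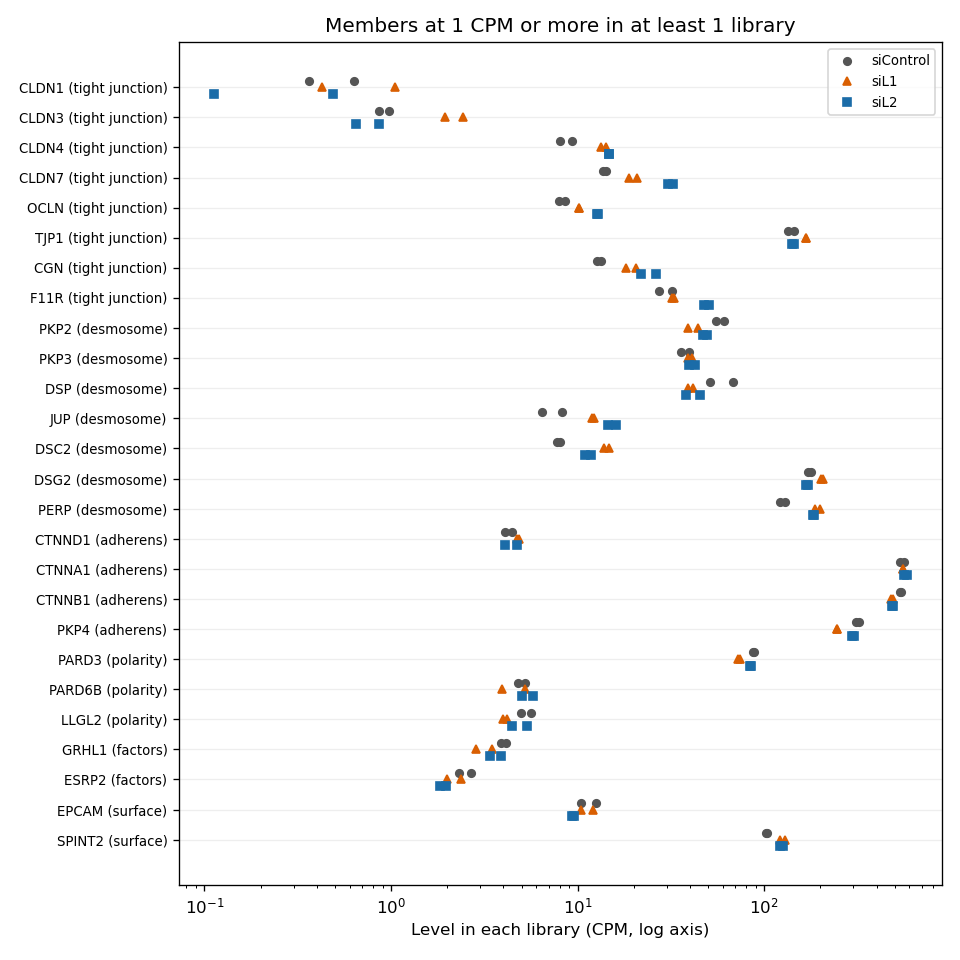
Level of the 26 members that reached 1 CPM (y axis, role in parentheses) in each library, in CPM on a log axis, with 2 points per group. The control points of CLDN4, CLDN7, CGN and JUP lie to the left of all points of both siRNAs, and those of DSP and PKP2 lie to the right.

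Of the 10 tight junction genes, 8 were tested. After siL1, 6 rose and 0 fell, where 24.7% of all genes tested were higher and 25.7% lower. After siL2, 5 rose and 0 fell, beside 22.6% and 23.3%. The median log2 fold changes of the 8 were 0.54 and 0.68. CLDN7, a claudin that forms the sealing strands, stood at 14.2 and 13.7 CPM in control libraries, 20.8 and 18.9 after siL1 and 30.3 and 32.4 after siL2. The 3 groups did not overlap, after siL2 highest. CLDN7 rose by 0.51 on the log2 scale after siL1 (SE 0.0873, adjusted p = 0.00033 by edgeR) and by 1.17 after siL2 (SE 0.0826, adjusted p = 2.15e-07), or 1.43-fold and 2.24-fold. It shares 38 bases with the neighbouring gene ELP5, listed as C17orf81, which did not rise (log2 fold changes -0.33 after siL1 and -0.01 after siL2).

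CLDN4, another sealing claudin, stood at 9.34 and 8.08 CPM in the control, 14.1 and 13.3 after siL1, and 14.7 CPM in both siL2 libraries. All 4 libraries of the LSD1 siRNAs were above both controls. It rose 1.58-fold after siL1 (log2 0.66, SE 0.105, edgeR adjusted p = 0.0002) and 1.69-fold after siL2 (log2 0.75, SE 0.104, adjusted p = 6.8e-05). CGN, which encodes the junctional adaptor cingulin, stood at 13.3 and 12.7 CPM in the control, 20.6 and 18.1 after siL1 and 26.3 and 21.8 after siL2. Again no group overlapped with the control, and CGN rose by 0.58 on the log2 scale after siL1 and by 0.89 after siL2. OCLN, the gene of the tight junction strand protein occludin, stood at 7.98 and 8.51 CPM in the control, 10.2 CPM in both siL1 libraries, and 12.8 and 12.7 after siL2. It rose by 0.62 after siL2 (SE 0.102, edgeR adjusted p = 0.000277) and by 0.31 after siL1 (SE 0.106, adjusted p = 0.0255). The siL1 call for OCLN ended without siControl replicate 1 (adjusted p = 0.126), siControl replicate 2 (0.053), siL1 replicate 1 (0.0739) or siL1 replicate 2 (0.0907), and with DESeq2 (0.131).

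Other tight junction genes passed the threshold with a single siRNA. CLDN3, a claudin gene that lies 29.3 kb from CLDN4 on chromosome 7 in GENCODE v29, stood at 0.862 and 0.974 CPM in the control, 2.42 and 1.95 after siL1 and 0.859 and 0.649 after siL2. Only the siL1 libraries were above the control, at 57 and 48 counts beside 19 and 23. CLDN3 rose 2.37-fold after siL1 (log2 1.25, SE 0.257, edgeR adjusted p = 0.00135), and its log2 fold change after siL2 was -0.28 (adjusted p = 0.496). F11R encodes the junctional adhesion molecule JAM-A. Its level was 31.9 and 27.2 CPM in the control, 32.8 and 32.1 after siL1 and 50.8 and 47.8 after siL2. The siL2 libraries were above the others, and F11R rose 1.66-fold after siL2 (log2 0.74, SE 0.0754, edgeR adjusted p = 5.81e-06). With siL1 its log2 fold change was 0.14 (adjusted p = 0.155). The call was made with the replicate block (adjusted p = 0.034) and without siControl replicate 1 (log2 0.26, adjusted p = 0.026). TJP1 encodes the scaffold ZO-1. Its level was 145 and 134 CPM in the control, 168 CPM in both siL1 libraries, and 144 and 141 after siL2, and rose by 0.27 after siL1 (SE 0.045, edgeR adjusted p = 0.000278). The siL2 libraries lay within the control range (log2 0.03, 95% interval -0.07 to 0.13). CLDN1, the remaining gene tested, had 3 to 26 counts per library and did not pass in either comparison. It reached 1 CPM only in siL1 replicate 2.

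Desmosome genes moved in both directions. Of 7 tested, 4 rose and 2 fell after siL1, and 3 rose and 2 fell after siL2, where 24.7% of all genes tested were higher and 25.7% lower after siL1, and 22.6% and 23.3% after siL2. JUP, the gene of plakoglobin, stood at 8.25 and 6.48 CPM in the control, 12.2 and 11.9 after siL1 and 16.1 and 14.6 after siL2, so that no groups overlapped. It rose 1.64-fold after siL1 (log2 0.72, SE 0.125, edgeR adjusted p = 0.000388) and 2.08-fold after siL2 (log2 1.06, SE 0.12, adjusted p = 1.41e-05). DSC2, a desmosomal cadherin gene, stood at 8.03 and 7.75 CPM in the control, 14.7 and 13.9 after siL1 and 11.8 and 10.9 after siL2. Here the siL1 libraries were the highest, with a rise of 0.86 on the log2 scale (SE 0.104) beside 0.53 after siL2 (SE 0.106). PERP stood at 129 and 122 CPM in the control, 198 and 187 after siL1 and 185 and 182 after siL2. It rose 1.54-fold after siL1 (log2 0.63, SE 0.0439, edgeR adjusted p = 1.83e-07) and 1.46-fold after siL2 (log2 0.55, SE 0.0438, adjusted p = 6.71e-07).

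The plaque genes DSP and PKP2 went the other way. DSP, the gene of desmoplakin, stood at 68.4 and 51.3 CPM in the control, 41.5 and 38.9 after siL1 and 45.2 and 38.3 after siL2. The control libraries were the highest and also lay far apart. DSP fell by 0.57 on the log2 scale after siL1 (SE 0.112, edgeR adjusted p = 0.00101) and fell by 0.52 after siL2 (SE 0.111, adjusted p = 0.00194). Without siControl replicate 1 the values were -0.35 and -0.30, and DSP still passed in both comparisons (adjusted p = 0.00819 and 0.0204 by edgeR). In the authors' deposited table its adjusted p was 0.0801 after siL1 and 0.156 after siL2, neither below 0.05. PKP2, a plakophilin, stood at 60.6 and 54.9 CPM in the control, 43.9 and 39.1 after siL1 and 46.9 and 49.5 after siL2. It fell by 0.47 after siL1 (SE 0.0706, edgeR adjusted p = 0.000122) and fell by 0.26 after siL2 (SE 0.0692, adjusted p = 0.00724). The siL2 call for PKP2 ended without siControl replicate 1 (log2 -0.19, adjusted p = 0.0788) or siL2 replicate 1 (-0.22, adjusted p = 0.0513).

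DSG2, which lies 396 kb from DSC2 on chromosome 18, stood at 178 and 171 CPM in the control, 201 and 207 after siL1 and 173 and 168 after siL2. It rose by 0.23 on the log2 scale after siL1 (SE 0.0411, edgeR adjusted p = 0.000521), and the siL2 libraries overlapped with the control (log2 -0.04, 95% interval -0.13 to 0.05). PKP3, a plakophilin, stood at 39.4 and 35.8 CPM in the control and 38.9 to 42.5 CPM in the other libraries. Its log2 fold changes were 0.10 after siL1 (95% interval -0.06 to 0.25) and 0.12 after siL2 (-0.03 to 0.27), and the latter passed when replicate numbers were blocked (adjusted p = 0.0491).

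Of the adherens junction catenins, CTNNA1 and CTNNB1 moved little. CTNND1, at 4.08 to 4.85 CPM, did not pass in any comparison. CTNNB1, whose product also carries Wnt signals, stood at 534 and 539 CPM in the control, 476 and 491 after siL1 and 482 and 490 after siL2. All 4 libraries were below both controls, and CTNNB1 fell by 0.15 on the log2 scale with each siRNA (SE 0.0346 and 0.0345, edgeR adjusted p = 0.00355 and 0.00361), to 0.904 and 0.903 of its control level. CTNNA1 stood at 562 and 537 CPM in the control and 555 to 584 CPM in the other libraries. Its log2 fold changes were 0.02 after siL1 (95% interval -0.06 to 0.10) and 0.06 after siL2 (-0.02 to 0.14), which passed with the replicate block (adjusted p = 0.0463). PKP4, an armadillo protein of the p120 group, stood at 320 and 309 CPM in the control, 245 CPM in both siL1 libraries, and 304 and 296 after siL2. It fell by 0.36 after siL1 (SE 0.037, edgeR adjusted p = 5.61e-06), while after siL2 it was at -0.07 (adjusted p = 0.118, and 0.0229 with the replicate block). With PKP4 and CTNNB1, 2 of the 4 tested adherens junction members fell after siL1 and 0 rose, and after siL2 1 fell and 0 rose. Over all genes tested, 25.7% were lower and 24.7% higher after siL1, and 23.3% and 22.6% after siL2.

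Polarity genes and the remaining members mostly did not pass. Of 3 tested polarity genes, PARD3, the scaffold of the apical PAR complex, stood at 87.5 and 87.8 CPM in the control, 74.0 and 72.5 after siL1 and 84.5 and 83.8 after siL2. It fell by 0.25 on the log2 scale after siL1 (SE 0.0458, edgeR adjusted p = 0.000495), and after siL2 its value was -0.06 (adjusted p = 0.274). PARD6B was at 3.94 to 5.76 CPM with overlapping groups. LLGL2, a basolateral polarity gene, was at 4.95 and 5.62 CPM in the control and no higher than 4.18 after siL1, and its value of -0.36 (adjusted p = 0.0682) passed with the replicate block (0.0287). The factor genes GRHL1, at 2.84 to 4.15 CPM, and ESRP2, at 1.83 to 2.67 CPM, did not pass in any comparison.

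SPINT2 stood at 103 and 102 CPM in the control, 129 and 121 after siL1 and 127 and 122 after siL2. It was above the control in all 4 libraries and rose by 0.29 and 0.28 on the log2 scale (SE 0.0452 and 0.045, edgeR adjusted p = 0.000158 and 0.000253). EPCAM, a surface protein of epithelial cells, stood at 10.4 and 12.6 CPM in the control, 10.4 and 12.1 after siL1 and 9.56 and 9.34 after siL2. Its siL2 libraries were the lowest (log2 -0.29, 95% interval -0.55 to -0.02, edgeR adjusted p = 0.0735). That value passed with the replicate block (adjusted p = 0.0129), without the low-count filter (0.0419) and without siControl replicate 1 (log2 -0.42, adjusted p = 0.0278). ST14 was tested at 4 to 19 counts and did not pass.

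**Figure D4:**
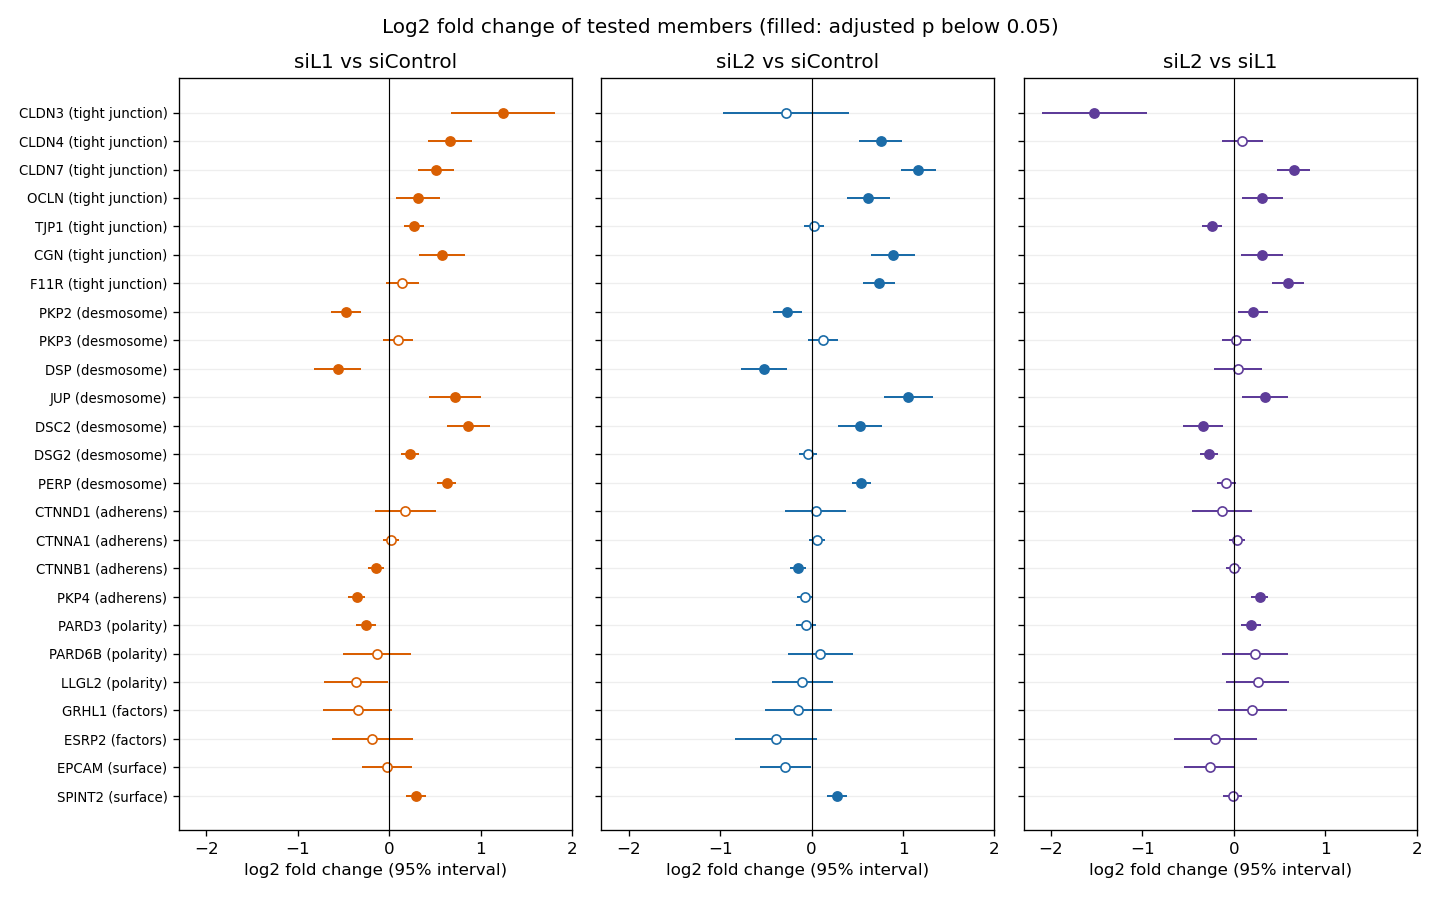
Log2 fold change (x axis, with its 95% interval) of 25 tested members (y axis) for siL1 and siL2 against the control and siL2 against siL1; filled points passed the threshold. CLDN1 and ST14, with few counts, are left out; CLDN7 and JUP lie farthest right after siL2, and CLDN3 lies farthest right after siL1 and farthest left in the difference.

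The siRNAs were then compared with each other. Of the 27 members, 12 differed between siL2 and siL1, 8 higher and 4 lower after siL2, or 44.4%, where 46.8% of all genes tested differed, 23.2% higher and 23.7% lower. The largest difference was in CLDN3, lower after siL2 by a log2 difference of -1.53 (SE 0.26, edgeR adjusted p = 0.00038). CLDN7 was 1.57-fold higher after siL2 (log2 0.65, adjusted p = 2.26e-05) and F11R 1.51-fold higher (log2 0.59, adjusted p = 3.21e-05). PKP4 (0.28), PARD3 (0.19), DSG2 (-0.27) and TJP1 (-0.24) also differed. The calls for JUP (0.34), CGN (0.31), OCLN (0.31), PKP2 (0.21) and DSC2 (-0.34) did not pass with DESeq2, which left 7 members. Each of these 5 also ended without at least 1 library (adjusted p from 0.065 for OCLN to 0.249 for CGN). Of these, CGN ended without siL1 replicate 2 or siL2 replicate 1 (log2 0.17 without the latter), and DSC2 without siL1 replicate 1 or siL2 replicate 2. PKP2 ended without siL1 replicate 2 (log2 0.13) or siL2 replicate 2, JUP without any of the siRNA libraries but siL2 replicate 2, and OCLN without any 1 of the 4. Without siL1 replicate 2, 4 members were higher with siL2, and without siL2 replicate 1, 5 were. For CLDN4 the difference was 0.09 (95% interval -0.11 to 0.30) and for SPINT2 -0.01 (-0.11 to 0.08). PERP (-0.08), EPCAM (-0.26) and CLDN1 (-1.35) passed with the replicate block, at adjusted p = 0.0258, 0.0207 and 0.00883, which brought the members lower with siL2 to 7. CLDN1 also passed without the low-count filter and without siL1 replicate 1 or siL2 replicate 2.

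Among 50 further junction, polarity and epithelial genes, 33 could be tested. After siL1, 12 rose and 7 fell, or 57.6%, where 50.4% of all genes tested passed. After siL2, 11 rose and 5 fell, or 48.5%, where 45.8% passed, so that both total shares were near those of all genes. By direction, 36.4% were higher after siL1 and 33.3% after siL2, beside 24.7% and 22.6% of all genes tested. The lower genes made up 21.2% and 15.2%, beside 25.7% and 23.3%. CXADR, the gene of the coxsackie and adenovirus receptor at tight junctions, stood at 8.30 and 6.73 CPM in the control, 16.6 and 15.3 after siL1 and 11.7 and 10.3 after siL2. It rose by 1.10 on the log2 scale after siL1 (edgeR adjusted p = 9.19e-06) and by 0.55 after siL2 (adjusted p = 0.00313). CGNL1, a paralog of cingulin, rose after siL1 (0.96), and its call did not hold with DESeq2 (adjusted p = 0.0511). LLGL1, a basolateral polarity gene, rose by 0.66 and 0.47. PARD6A, an apical PAR complex gene, fell by 1.05 after siL1 and by 0.78 after siL2, and its paralog PARD6G fell by 1.18 after siL2 only, with a difference between the siRNAs of -1.19 (adjusted p = 5.81e-05). MARVELD1 fell by 0.66 after siL1 and fell by 0.72 after siL2. JAM3, at 18 to 52 counts, rose by 0.83 after siL2, which did not pass with DESeq2 (adjusted p = 0.153). It did not pass without siControl replicate 1 (0.223) or siL2 replicate 2 (0.209) either. The apical scaffold MPDZ fell by 0.56 after siL1. With siL2 its log2 fold change was 0.18 (adjusted p = 0.0375), a call that ended with DESeq2 (0.107) and without either control or either siL2 library (0.0555 to 0.176). The desmosomal cadherin genes DSC3 and DSG3 and the tight junction gene JAM2 had 0 counts in all libraries.

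Repressors of the epithelial program were measured beside these genes. SNAI1 rose by 0.80 and 0.57 on the log2 scale after siL1 and siL2, SNAI2 by 0.90 and 0.62 and ZEB2 by 0.53 and 0.48, each past the threshold. ZEB1 was at 127 to 149 CPM with overlapping groups and did not pass. TWIST1 had -0.39 after siL1 and -0.06 after siL2 and did not pass. These genes belong to a list of 12 mesenchymal markers, of which 11 were tested. After siL1, 5 of the list rose and 4 fell (VIM, CD44, FN1 and MSN), where 24.7% of all genes tested were higher and 25.7% lower. After siL2, 5 rose and 0 fell, beside 22.6% and 23.3%.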

How the data were processed

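Per the submitters' processing notes, the authors used TopHat 1.3.3, HTSeq and DESeq with the hg19 build; their settings, annotation and strand mode are not given in the sources used here. The deposited table holds raw counts per gene symbol, a linear fold change (ratio) and an adjusted p-value per siRNA, per the file headers. Members and lists were chosen with earlier results of these data known. Counts were analysed in R 4.3.3 with edgeR 4.0.16: filterByExpr kept 13322 genes and left out 10046, with TMM scaling, glmQLFit on group over all 6 libraries (3 residual degrees of freedom), glmQLFTest, two-sided, and Benjamini-Hochberg adjustment at 0.05. The fit was tested on simulated data. Values in each library are given for members past the threshold with a log2 change of at least 0.5 and for up to 3 others per role at 5 CPM or more. Other genes named are the 4 with the largest changes per comparison among those past the threshold, by log2 change. Alternatives were DESeq2 1.42.0, limma-voom (limma 3.58.1), other scaling and filters, the compared groups alone, a replicate block and leaving out each library. Same-numbered libraries deviated together (correlations 0.133 to 0.198 over genes), so blocked values stand where they change a call; the labels do not state such pairing. Gene models came from GENCODE v29 on GRCh38, joined by symbol (86.1% matched, all 38 members), and promoters from RefSeq; figures used matplotlib 3.10.9. Intervals and floors cover counting or library spread only.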

Additional observations from a re-analysis of the deposited data

How the results depend on the processing

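Of the 16 members past the threshold with siL1, all kept their call and direction under both other scalings, both other filters, limma-voom, the replicate block and the compared groups alone, and 15 did with DESeq2. Of the 12 with siL2, all 12 kept it under each of these. With the replicate number as a block, 5 members were lower with siL2 against the control in place of 3, by EPCAM and PKP4. CTNNA1 and PKP3 were added to the higher members there. With siL1 the block added F11R, higher, and LLGL2, lower. Between the siRNAs, 7 were lower with siL2 than with siL1 in place of 4. The share of all genes called with the block is not given here, so these gains are not read as particular to the members. Between the siRNAs, DESeq2 gave 7 members, 4 of them higher with siL2, and leaving out 1 library gave 4 to 8 higher members in place of 8. Counting as silent only members at or under 3 counts in every library gave 4 in place of 12. The cause of these shifts was not tested. Changes of direction were seen only in values that did not pass: EPCAM with siL1 (0.0018 with upper quartile scaling), PARD6G with siL1 (-0.0086 without a filter, -6e-04 with limma-voom and with the replicate block) and CTNNB1 between the siRNAs (0.002 without a filter). Leaving out 1 library moved the log2 fold change across 0 for these: after siL1, CTNNA1 (-0.0167 to 0.0504), PARD6B (-0.3467 to 0.0534), EPCAM (-0.1524 to 0.1209) and PARD6G (-0.132 to 0.1219); after siL2, TJP1 (-0.0274 to 0.0843), PARD6B (-0.0043 to 0.1944) and CGNL1 (-0.063 to 0.355); and between the siRNAs, DSP (-0.0736 to 0.1579), PKP3 (-0.0263 to 0.0815), CTNNB1 (-0.0285 to 0.0277) and SPINT2 (-0.0504 to 0.0274). Depth limits the near-silent members most, since 3 counts already correspond to 0.112 to 0.136 CPM.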

Other observations

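The 3′ UTRs of the members were searched for heptamers that an earlier description of the same data had picked out, so their counts are no independent evidence. TACATTT or ACATTTA, which overlap each other, was present in the longest GENCODE v29 3′ UTR of 13 of the 27 tested members (48.1%) and of 35.1% of the 11361 tested genes with such a sequence. Of the 11 members higher with siL1, 7 held it (CLDN4, OCLN, TJP1, CGN, DSC2, DSG2 and PERP). Of the 9 higher with siL2, 6 held it (CLDN4, OCLN, CGN, F11R, DSC2 and PERP), while CLDN7, JUP and SPINT2 did not. Of the 5 members lower with siL1, DSP and PKP2 held it (40.0%), and CTNNB1, PKP4 and PARD3 did not. Of the 3 lower with siL2, DSP and PKP2 held it and CTNNB1 did not. ACAGAGC was present in PKP2, PKP4 and DSC2, or 11.1% of the tested members beside 17.8% of the tested genes. GTTACAA was present in CLDN1 alone of the tested members, or 3.70% beside 9.45%, and in GRHL2, which had 0 counts. The DSC2 sequence is 9178 bases long, against a median of 1405 over the tested genes. The siRNA sequences were not known, and the part of these letters in the changes was not tested.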
